A study of Mus musculus with 18 samples.

Results

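The soleus is the slow, postural muscle of the mouse calf, and its gene expression was compared between flown mice and mice kept in a standard animal facility. The comparison rests on 6 of the 18 arrays of the series, 3 solei of flown mice (BION Flown, BF) and 3 solei of facility mice (Flight Control, FC), chosen by the muscle and the group in the sample titles. It covered 12393 genes that were named by 20393 probe sets of an Affymetrix mouse array, a 3′ expression array hybridised with labelled RNA.

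BF mice spent 30 days in orbit aboard the Bion M1 biosatellite and, by the methods of the study, were carried from the landing site to the laboratory before dissection. Ground mice housed for 30 days in a replicate of the flight habitat (BION Ground, BG) and FC mice, held in ordinary cages over the same period, stayed on the ground. The mice of all groups were adult males of the strain labelled C57/BL6 and gave total RNA from soleus and from extensor digitorum longus (EDL), a fast muscle. BF and BG mice ate a paste diet and FC mice ate chow, so that flight, habitat, food, landing and transport all lie between BF and FC and cannot be told apart in this comparison. Nothing in the labels says whether the 3 arrays of a group came from separate animals, so the p values measure the spread between these samples.

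Slow fibres express their own set of myosins, troponins and calcium proteins and burn fatty acids in many mitochondria, while fast fibres use other isoforms, release and buffer more calcium, and rely more on glycogen. Load and nerve activity hold the soleus in the slow state, and calcineurin, the PPAR and ERR nuclear receptors and the PGC-1 coactivators are known regulators of that programme. Damaged or newly loaded fibres switch on immediate early genes, heat shock proteins and chemokines within hours, whereas contractile isoforms and matrix change over days to weeks.

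Signals are given as log2 values after RMA normalisation, so that a difference of 1 is a change of 2-fold, and every difference is BF minus FC with its standard error from a linear model of 6 groups. Array correlations were 0.978 to 0.99 within BF, 0.992 to 0.995 within FC and 0.964 to 0.979 between BF and FC arrays. The 6 arrays carried the soleus markers of slow muscle, with Myh7 between 12.85 and 13.31 in BF and between 13.87 and 13.93 in FC. Red blood cell markers passed the test for 0 of 5 genes, and their summed linear signal was 182 to 219 in BF and 186 to 232 in FC.

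At a change above 2-fold with an adjusted p under 0.05 through any of its probe sets, 360 genes rose (2.90% of 12393) and 328 fell (2.65%) in BF relative to FC. On the 1 probe set per gene with the highest mean signal, which gives the values below, the counts were 225 and 255. At any fold, 1118 genes rose (9.02%) and 1987 fell (16.0%), and the median difference over all genes was -0.00477. Of the 480 genes called on 1 probe set, 429 stayed past the test without each of the 6 arrays in turn, and between 15 (without BF replicate 3) and 36 (without BF replicate 2) were lost when 1 array was left out.

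The 15 largest rises, sought among called genes whose BF and FC arrays do not overlap, included stretch, stress, fast contractile and growth-factor genes. That the arrays of these genes lie apart was fixed by this choice, here and below. Ankrd1, a titin-binding ankyrin repeat protein of the sarcomere, gave 12.34, 12.80 and 11.47 in BF, against 8.12, 7.87 and 8.12 in FC (4.17 ± 0.62, adjusted p = 0.000177). The BF and FC arrays lay more than 3 log2 units apart. A further Ankrd1 probe set gave a difference of 5.16. Atf3, a stress-induced transcription factor, gave 12.68, 13.21 and 11.49 in BF, against 8.66, 8.19 and 8.14 in FC (4.13 ± 0.89, adjusted p = 0.0029). Hbegf, a membrane-bound ligand of the EGF receptor, gave 11.47, 12.36 and 10.59 in BF, against 7.72, 7.67 and 7.42 in FC (3.87 ± 0.48, adjusted p = 4.46e-05). Neither gene overlapped between the groups. Tnfrsf12a, the receptor of the cytokine TWEAK, gave 12.59, 13.05 and 12.23 in BF, against 10.15, 9.54 and 9.74 in FC (2.82 ± 0.39, adjusted p = 0.000107), and Mustn1, a small nuclear protein of muscle and skeleton, 12.42, 12.69 and 11.82 in BF, against 10.17, 9.86 and 9.51 in FC (2.47 ± 0.26, adjusted p = 1.51e-05). Mybph, a myosin-binding protein related to the C proteins, was more variable, at 9.30, 10.36 and 7.89 in BF, against 6.73, 5.55 and 5.96 in FC (3.10 ± 0.77, adjusted p = 0.00719). Tspan8, a tetraspanin, reached 8.30, 6.34 and 9.28 in BF, against 5.01, 5.34 and 5.50 in FC (2.69 ± 0.48, adjusted p = 0.000771), and the unnamed gene Gm13889 reached 10.79, 11.27 and 8.92 in BF, against 7.12, 6.72 and 6.40 in FC (3.58 ± 0.43, adjusted p = 3.66e-05). On these 2 genes too every BF array lay above every FC array on the brightest probe set, as the choice required. Other Tspan8 probe sets lay at 0.75, 0.69 and 0.62 and another of Gm13889 at 0.41, and none of these passed.

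The 15 largest falls, sought by the same rule, included a circadian factor, synaptic and membrane genes, and matrix genes. Their arrays too lie apart by that rule. Dbp, a clock-driven transcription factor, gave 6.30, 5.82 and 6.21 in BF, against 9.51, 10.19 and 10.06 in FC (-3.81 ± 0.51, adjusted p = 8.9e-05), a 14.0-fold difference. Lgi1, a secreted protein best known at neuronal synapses, gave 4.85, 6.02 and 4.88 in BF, against 7.77, 8.25 and 8.29 in FC (-2.85 ± 0.34, adjusted p = 3.05e-05). Cyfip2, a subunit of the WAVE complex that drives actin branching, gave 6.01, 6.65 and 6.52 in BF, against 9.12, 9.19 and 9.27 in FC (-2.80 ± 0.16, adjusted p = 4.29e-08). The BF arrays lay below the FC arrays for all 3 genes. Fzd9, a Wnt receptor found at the neuromuscular junction, gave 6.76, 7.06 and 6.51 in BF, against 9.46, 9.67 and 9.51 in FC (-2.77 ± 0.14, adjusted p = 9.23e-09), and its arrays within a group differed by little. Dusp18, a dual-specificity phosphatase, gave 7.21, 8.08 and 6.82 in BF, against 9.55, 9.93 and 9.95 in FC (-2.44 ± 0.31, adjusted p = 4.79e-05), and Ndrg4, a member of the NDRG family, 7.58, 8.64 and 6.93 in BF, against 10.21, 9.95 and 10.09 in FC (-2.37 ± 0.30, adjusted p = 4.95e-05). The noncoding transcript Lncpint gave 6.29, 4.52 and 5.08 in BF, against 6.94, 8.07 and 7.42 in FC (-2.18 ± 0.60, adjusted p = 0.0136). Its adjusted p passed 0.05 when BF replicate 2 or FC replicate 2 was left out, with 0.0663 as the highest value. Ndrg4, Dusp18 and Lncpint did not overlap between BF and FC.

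**Figure D1:**
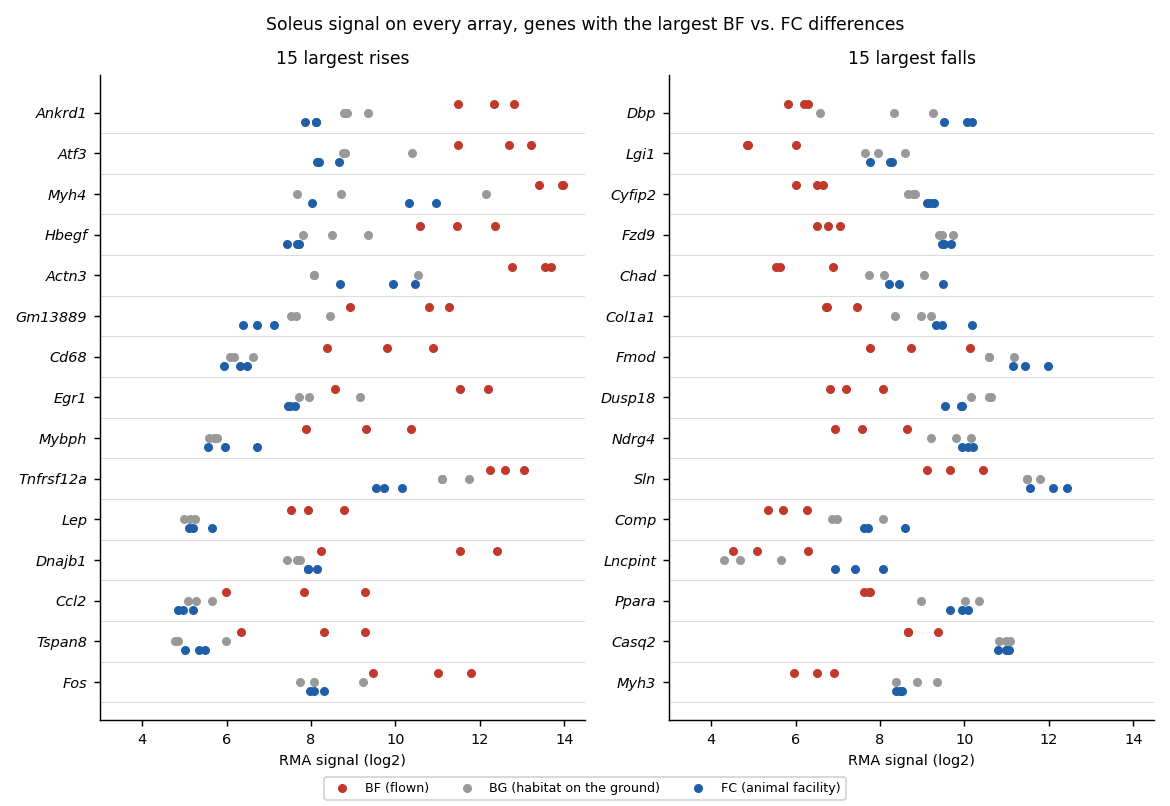
RMA signal (log2, horizontal axis) of the 15 genes with the largest rises (left) and the 15 with the largest falls (right), with 3 arrays per group, BF above BG above FC in each row. The 30 genes were chosen among those whose BF and FC arrays do not overlap, and Lncpint is low in BG as well, at 4.69, 5.67 and 4.30.

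The 3 BF arrays were not equally changed. BF replicate 2 had the highest BF signal for 166 of the 225 genes that rose above 2-fold on 1 probe set, and BF replicate 3 had the lowest for 144 of them. Among the 255 genes that fell, BF replicate 1, 2 and 3 had the lowest signal for 84, 98 and 73. Without BF replicate 3 the count of genes called through any probe set was 816, and without BF replicate 2 it was 614.

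The pathways and cell types of the muscle were followed with 52 gene lists, given here with the number of measured members that passed the test at any fold. Of the distinct members of these lists, 197 rose and 241 fell, beside 1118 (9.02%) and 1987 (16.0%) of all 12393 genes. The lists were chosen with earlier results of these data known, so these totals are no result about the lists. Each list count below is to be read against the shares of all genes. Lists with the largest share of rises were the snoRNA host genes and the immediate early genes, and lists with the largest share of falls were fatty acid oxidation, branched-chain amino acid catabolism, the matrix and the tricarboxylic acid cycle. The lists differ in size and share some genes, and no list was tested as a set. Of 23 list counts of 1 or 2 genes, 20 moved by more than 1.5 times when some 1 BF or FC array was left out. Of 82 named genes with several probe sets, 22 passed on the brightest and not on at least 1 other, so their calls depended on the probe set. The 22 included Aplnr, Atf4, Cebpd, Clock, Cox15, Cs, Csf1r, Dgat2, Eln, Fn1, Gm13889 and Gpd1. The rest of them were Hspa8, Mfn1, Mt1, Odc1, Per2, Per3, Runx1, Slc2a4, Tspan8 and Xbp1. A further 6 (Atp2a2, Cd36, Hspa5, Myh1, Rcan1 and Tsc22d3) passed on another and not on the brightest.

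**Figure D2:**
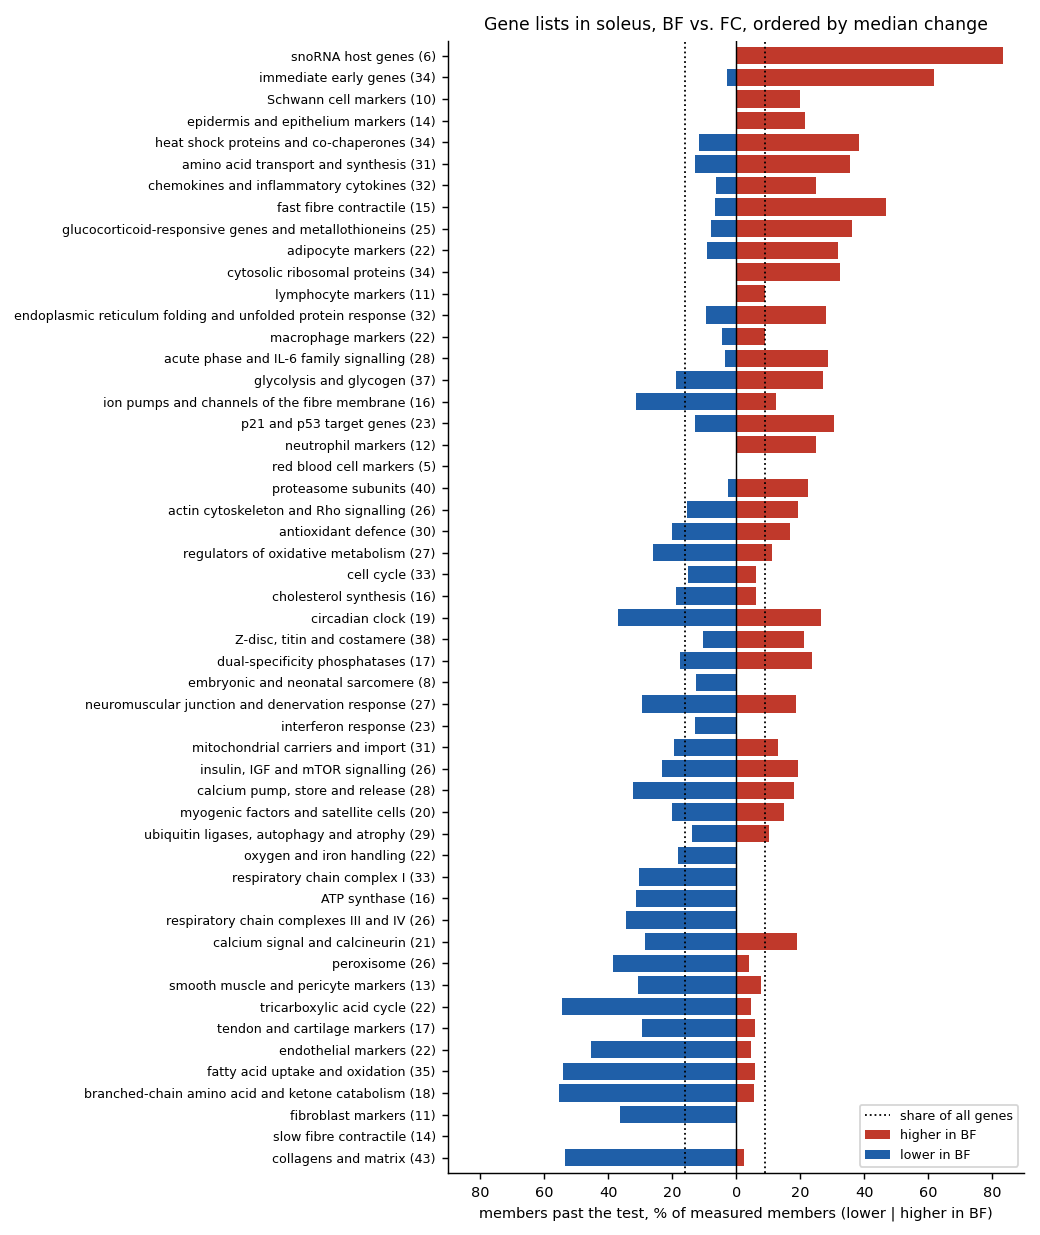
Share of the measured members of each gene list (number in brackets) that passed the test in soleus, with falls to the left and rises to the right, ordered by the median BF minus FC difference. Dotted lines mark the shares over all genes, 9.02% for rises and 16.0% for falls, and slow fibre contractile genes show no bar because none of 14 passed in the 6-group model.

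Several fast fibre contractile genes rose, led by the fastest isoforms. Of 15 measured genes, 7 rose and 1 fell (median 0.32), and leaving out 1 BF or FC array gave 5 to 8 rises. Myh4, the myosin heavy chain of IIb fibres, gave 13.96, 13.41 and 13.95 in BF, against 8.02, 10.96 and 10.32 in FC (4.01 ± 0.79, adjusted p = 0.00166), a 16.1-fold difference. Actn3, the actinin of fast Z-discs, gave 13.68, 12.75 and 13.55 in BF, against 8.69, 9.93 and 10.46 in FC (3.63 ± 0.50, adjusted p = 0.000104). Both genes were near the top of the signal range on the BF arrays and varied on the FC arrays, where replicate 1 was lowest. Myoz1, a Z-disc protein that binds calcineurin and actinin, gave 13.33, 12.69 and 13.49 in BF, against 12.09, 12.07 and 12.07 in FC (1.09 ± 0.14, adjusted p = 7.3e-05), and a further, dimmer probe set gave 2.08. Mylpf, the fast regulatory light chain, rose by 0.47 (adjusted p = 0.00237) and Tnni2, the fast inhibitory troponin, by 0.32 (adjusted p = 0.013), both close to the top of the signal range. BF replicate 2 was the lowest BF array for each of the 7 genes that rose. Tppp3 was the list member that fell (-0.92 ± 0.26, adjusted p = 0.0175). The adjusted p of Tnni2 and Tppp3 exceeded 0.05 when some single arrays were left out, at up to 0.0582 and 0.081. Myh1, the IIx myosin, gave 13.61, 13.56 and 13.74 in BF, against 13.34, 13.48 and 13.73 in FC (0.12 ± 0.14, adjusted p = 0.548) on its brightest probe set, with overlapping groups, and 0.17 and 1.04 on the others, of which the dim one at 1.04 passed (adjusted p = 0.0032). Myh2, the IIa myosin, gave 13.07, 13.17 and 13.37 in BF, against 14.15, 14.05 and 14.05 in FC (-0.88 ± 0.31, adjusted p = 0.0513), with the BF arrays below the FC arrays. Whole-muscle RNA cannot tell fewer fibres of a type from less RNA per fibre.

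Slow fibre contractile genes lay lower in BF without passing the test of the 6-group model. Of 14 measured genes 0 passed (median -0.578), and all 3 BF arrays lay below the FC arrays for 9 of them, against 22.6% of all genes, and above for 1, against 15.7%. Myh7, the slow myosin heavy chain, gave 12.85, 13.31 and 12.92 in BF, against 13.93, 13.92 and 13.87 in FC (-0.88 ± 0.95, adjusted p = 0.542). Tnni1, the slow inhibitory troponin, gave 12.08, 12.75 and 11.88 in BF, against 13.34, 13.15 and 13.20 in FC (-0.99 ± 0.69, adjusted p = 0.321). Every BF array lay below every FC array for both genes. The model took its error from the EDL arrays too, where Myh7 ranged from 5.55 to 9.53 in BF and from 6.80 to 10.75 in FC. With the 9 soleus arrays fitted alone, 8 of the 14 fell and 1 rose, among them Myh7 (-0.88, adjusted p = 0.0012), Tnni1 (-0.99, adjusted p = 0.0044), the slow ventricular light chains Myl2 (-0.64, adjusted p = 0.0045) and Myl3 (-0.60, adjusted p = 0.0064), and the slow troponins Tnnt1 (-0.67, adjusted p = 0.0058) and Tnnc1 (-0.56, adjusted p = 0.013). Myh2 also passed in that fit (adjusted p = 0.00065). Of 8 embryonic and neonatal sarcomere genes 1 fell and 0 rose. This was Myh3, the embryonic myosin, at 6.91, 6.51 and 5.96 in BF, against 8.52, 8.48 and 8.39 in FC (-2.004 ± 0.32, adjusted p = 0.000339).

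Casq2, Sln and Pln, calcium proteins of slow muscle and heart, fell, and Pvalb, the calcium buffer of fast fibres, rose. Of 28 genes for the calcium pump, store and release, 5 rose and 9 fell (median -0.136). Pvalb, the cytosolic calcium buffer parvalbumin, gave 14.03, 13.28 and 14.04 in BF, against 11.13, 11.94 and 11.85 in FC (2.15 ± 0.29, adjusted p = 8.33e-05). Casq2, the cardiac and slow calsequestrin that binds calcium in the reticulum, gave 8.67, 9.39 and 8.66 in BF, against 10.99, 10.79 and 11.05 in FC (-2.04 ± 0.18, adjusted p = 4.68e-06). Groups did not overlap for either gene. Sln (sarcolipin), a small inhibitor of the calcium pump, gave 9.65, 10.45 and 9.12 in BF, against 12.10, 11.55 and 12.42 in FC (-2.28 ± 0.41, adjusted p = 0.000797), and Pln (phospholamban), a related inhibitor, 5.97, 6.25 and 6.15 in BF, against 7.84, 8.13 and 7.48 in FC (-1.69 ± 0.18, adjusted p = 1.51e-05). Jph1, which ties the reticulum to the transverse tubule, rose by 0.87 (adjusted p = 0.000738). Atp2a2, the slow pump SERCA2, gave 13.02, 13.48 and 13.28 in BF, against 14.05, 13.97 and 13.98 in FC (-0.74 ± 0.54, adjusted p = 0.35) on its brightest probe set, while 2 dimmer probe sets passed at -1.54 and -1.56 and another lay at -0.98 (adjusted p = 0.191). On the brightest probe set every BF array lay below every FC array, and as for Myh7 the model took its error from the EDL arrays too. Atp2a1, the fast pump, gave 0.13 (adjusted p = 0.345), Casq1 0.18 (adjusted p = 0.632) and the release channel Ryr1 -0.13 (adjusted p = 0.583). Casq1 was lowest on BF replicate 2, at 11.75, with 13.16 and 13.01 on the other two BF arrays.

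**Figure D3:**
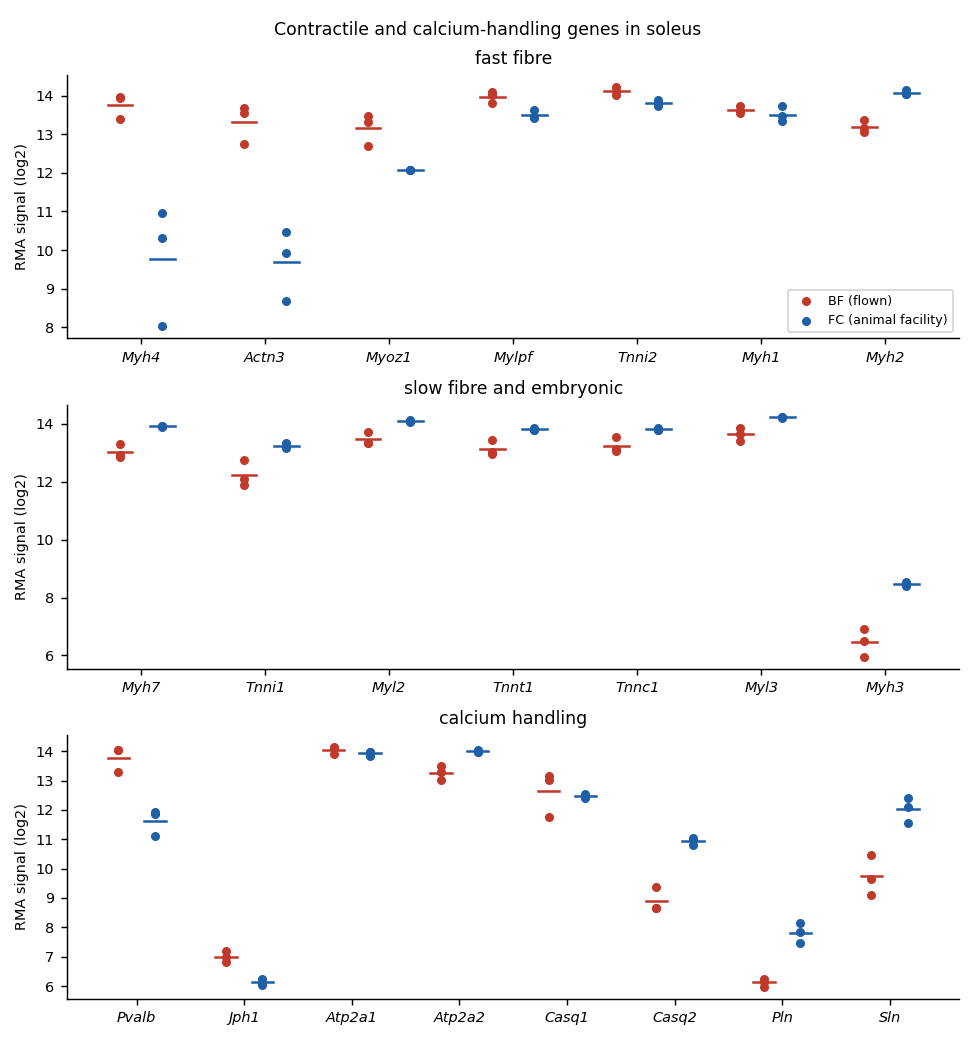
RMA signal (log2, vertical axis) of fast fibre, slow fibre and embryonic, and calcium-handling genes on each soleus array, with BF left of FC for each gene and a bar at the mean of 3 arrays. Myh4, Actn3 and Pvalb stand higher in BF, and the slow fibre genes and Myh3, Casq2, Pln and Sln stand lower.

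Calcium signalling and membrane channel genes moved both ways. Of 21 genes of calcium signalling and calcineurin, 4 rose and 6 fell, or 2 and 2 without FC replicate 2. Homer2, a scaffold that anchors calcium channels, gave 9.38, 10.22 and 9.82 in BF, against 11.51, 11.55 and 11.43 in FC (-1.69 ± 0.20, adjusted p = 3.44e-05). Rcan2, an inhibitor of calcineurin, gave 9.15, 9.03 and 9.63 in BF, against 10.84, 10.94 and 10.97 in FC (-1.64 ± 0.18, adjusted p = 1.51e-05). Its relative Rcan1, whose short isoform is a calcineurin target, gave 12.43, 13.29 and 11.60 in BF, against 11.47, 11.30 and 11.37 in FC (1.06 ± 0.42, adjusted p = 0.0794) on the brighter probe set and 9.70, 10.87 and 8.81 in BF, against 7.01, 6.36 and 6.75 in FC, on the dimmer one (3.08, adjusted p = 0.00228), so the call depended on the probe set. Of 16 ion pumps and channels of the fibre membrane, 2 rose and 5 fell, or 3 without FC replicate 3. Kcnma1, the large-conductance calcium-activated potassium channel, gave 6.97, 7.20 and 7.04 in BF, against 8.96, 8.97 and 9.07 in FC (-1.93 ± 0.18, adjusted p = 5.2e-06), and Kcna7, a voltage-gated potassium channel, 8.64, 7.52 and 8.75 in BF, against 10.001, 9.88 and 9.47 in FC (-1.48 ± 0.24, adjusted p = 0.000432).

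Many genes for burning fatty acids, ketones and branched-chain amino acids fell. Of 35 genes of fatty acid uptake and oxidation, 19 fell and 2 rose (median -0.424, against -0.00477 over all genes), with 11 falls without FC replicate 1 and 12 without FC replicate 3. Acaa2, the mitochondrial thiolase, gave 9.70, 9.60 and 10.10 in BF, against 11.42, 11.32 and 11.63 in FC (-1.66 ± 0.17, adjusted p = 1.26e-05). Hadha, the alpha subunit of the trifunctional protein, gave 10.15, 9.96 and 10.20 in BF, against 11.60, 11.73 and 11.80 in FC (-1.60 ± 0.20, adjusted p = 4.63e-05). Cpt2, the inner carnitine palmitoyltransferase, gave 8.98, 8.66 and 9.36 in BF, against 10.53, 10.27 and 10.66 in FC (-1.49 ± 0.18, adjusted p = 4.07e-05). None of these overlapped between the groups. Fabp3, the fatty acid binding protein of heart and slow muscle, fell by 1.11 (adjusted p = 0.00012), while the fatty acid transporter Cd36 was at -0.38 (adjusted p = 0.0834) on its brightest probe set and at -0.69 on another that passed (adjusted p = 0.0054). Of 26 peroxisome genes 10 fell and 1 rose. Of 18 genes of branched-chain amino acid and ketone catabolism 10 fell and 1 rose (median -0.446). Oxct1, which activates ketone bodies for oxidation, gave 11.41, 11.09 and 11.50 in BF, against 12.54, 12.61 and 12.73 in FC (-1.29 ± 0.15, adjusted p = 2.87e-05). Bdh1, the ketone body dehydrogenase, gave 9.26, 10.15 and 9.57 in BF, against 11.43, 11.42 and 11.30 in FC (-1.72 ± 0.45, adjusted p = 0.00977), and -2.99 on a second probe set. Both ketone genes were lower on each BF array.

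Part of the genes of the tricarboxylic acid cycle and the respiratory chain fell. Of 22 cycle genes 12 fell and 1 rose (median -0.301). Idh2, the mitochondrial NADP-dependent isocitrate dehydrogenase, gave 10.32, 10.62 and 10.47 in BF, against 12.07, 11.996 and 11.99 in FC (-1.55 ± 0.17, adjusted p = 1.51e-05). Ogdh, of the oxoglutarate dehydrogenase complex, fell by 1.28 (adjusted p = 0.000168), and Cs, citrate synthase, by 0.39 (adjusted p = 0.00753). Complex I had 10 falls among 33 genes, complexes III and IV had 9 among 26, and ATP synthase had 5 among 16, with 0 rises in each. Without BF replicate 2 the falls were 6 in complex I and 3 in ATP synthase, which had 3 also without FC replicate 1 or 3, and 8 without BF replicate 3. Examples are Ndufb10 of complex I (-0.70 ± 0.11), Cyc1, the cytochrome of complex III (-0.86 ± 0.11), Cox15, which makes the haem of complex IV (-1.13 ± 0.14), and Atp5d of ATP synthase (-0.73 ± 0.15). Mfn1, which fuses outer mitochondrial membranes, gave 9.73, 9.48 and 9.63 in BF, against 10.88, 10.74 and 10.81 in FC (-1.20 ± 0.12, adjusted p = 7.47e-06). Among 27 regulators of oxidative metabolism 3 rose and 7 fell, with 1 rise without BF replicate 1, FC replicate 1 or FC replicate 3 and 5 without BF replicate 2. Ppara, the nuclear receptor that senses fatty acids, gave 7.77, 7.63 and 7.73 in BF, against 9.65, 9.95 and 10.07 in FC (-2.18 ± 0.27, adjusted p = 4.98e-05). Ppargc1b, a coactivator of mitochondrial genes, gave 7.54, 7.12 and 7.60 in BF, against 8.84, 8.71 and 8.80 in FC (-1.36 ± 0.20, adjusted p = 0.000174), and Esrra, its partner receptor, 8.21, 8.06 and 8.01 in BF, against 8.80, 9.15 and 8.91 in FC (-0.87 ± 0.12, adjusted p = 7.75e-05). The 3 genes did not overlap between BF and FC. Sirt3, a mitochondrial deacetylase, fell by 1.03 (adjusted p = 0.000193). Ppargc1a (PGC-1 alpha) was at -0.86 ± 0.34 with an adjusted p of 0.0747, and its other 4 probe sets lay between -0.84 and -0.23.

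Sugar metabolism was mixed. Of 37 genes of glycolysis and glycogen 10 rose and 7 fell (median 0.145), and 16 rose when BF replicate 2 was left out. Adpgk, an ADP-dependent glucokinase, gave 7.75, 8.75 and 6.88 in BF, against 5.88, 5.91 and 5.77 in FC (1.94 ± 0.28, adjusted p = 0.000131). Slc16a3, the lactate exporter MCT4 of fast fibres, gave 9.34, 6.40 and 8.88 in BF, against 6.24, 6.37 and 6.12 in FC (1.97 ± 0.47, adjusted p = 0.0056). BF replicate 2 was barely above FC for Slc16a3 and highest for Adpgk. Fbp2, the muscle fructose bisphosphatase, gave 9.05, 8.05 and 9.19 in BF, against 7.16, 7.23 and 7.01 in FC (1.63 ± 0.36, adjusted p = 0.0033), Phkg1, the catalytic subunit of muscle phosphorylase kinase, 9.45, 8.06 and 9.31 in BF, against 7.43, 7.43 and 7.65 in FC (1.44 ± 0.25, adjusted p = 0.000581), and Gpd1, the cytosolic glycerol phosphate dehydrogenase, 10.03, 8.28 and 9.42 in BF, against 7.53, 7.92 and 8.20 in FC (1.36 ± 0.33, adjusted p = 0.00625). All 3 were lowest in BF on replicate 2. Of further Gpd1 probe sets, that at 1.15 passed and those at 0.04 and 0.11 did not. Ldhb, the heart-type lactate dehydrogenase, fell by 1.07 (adjusted p = 0.00859) and Slc2a4, the insulin-responsive glucose transporter, by 0.78 (adjusted p = 0.00625). On a further probe set Slc2a4 was at -0.41 and did not pass (adjusted p = 0.16). Pdk4, which shuts off pyruvate oxidation, rose by 0.88 (adjusted p = 0.00205).

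Most immediate early genes rose. Of 34 measured genes 21 rose and 1 fell (median 0.792), with 13 rises without FC replicate 1. Egr1, a zinc finger factor, gave 11.52, 12.19 and 8.56 in BF, against 7.44, 7.51 and 7.63 in FC (3.23 ± 0.61, adjusted p = 0.00119). Fos, of the AP-1 complex, gave 11.01, 11.78 and 9.46 in BF, against 8.31, 8.08 and 7.97 in FC (2.63 ± 0.50, adjusted p = 0.00113). Myc gave 8.33, 9.01 and 6.89 in BF, against 5.71, 5.76 and 5.70 in FC (2.35 ± 0.35, adjusted p = 0.000178). Every BF array lay above every FC array for these genes, with BF replicate 3 nearest to FC. Fosl1, another AP-1 subunit, rose by 1.89 ± 0.28 (adjusted p = 0.000173), Klf6, a Krüppel-like factor, by 1.47 ± 0.20 (adjusted p = 9.61e-05) and Nr4a1, an orphan nuclear receptor, by 1.04 ± 0.23 (adjusted p = 0.003). Ccn1, a matricellular protein, gave 10.57, 11.59 and 9.33 in BF, against 8.32, 8.69 and 8.83 in FC (1.89 ± 0.45, adjusted p = 0.00586). Its relative Ccn2 was the member that fell, at 9.53, 10.53 and 9.52 in BF, against 10.77, 11.12 and 11.02 in FC (-1.11 ± 0.36, adjusted p = 0.0338), and without 1 array its adjusted p reached 0.115. Of the 21 genes that rose, 19 were highest on BF replicate 2 and 19 lowest on BF replicate 3. Among 17 dual-specificity phosphatases, which switch off MAP kinases, 4 rose and 3 fell, with Dusp10 at 9.91, 10.76 and 9.33 in BF, against 7.61, 7.75 and 7.82 in FC (2.27 ± 0.33, adjusted p = 0.00014).

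Several cytosolic heat shock proteins rose. Of 34 heat shock proteins and co-chaperones 13 rose and 4 fell on the brightest probe set (median 0.344), the 4 including Dnajb6, whose probe sets disagree, with 8 rises without BF replicate 2, FC replicate 2 or FC replicate 3 and 19 without BF replicate 3. Dnajb1, an HSP40 partner of HSP70, gave 11.53, 12.40 and 8.23 in BF, against 8.15, 7.93 and 7.93 in FC (2.72 ± 0.63, adjusted p = 0.00464). Hspa1a, an inducible HSP70, gave 12.81, 12.996 and 10.57 in BF, against 9.67, 9.56 and 9.99 in FC (2.38 ± 0.80, adjusted p = 0.0383), and Hspa1b 13.08, 13.42 and 11.33 in BF, against 9.91, 10.26 and 10.70 in FC (2.32 ± 0.80, adjusted p = 0.0435). For these genes BF replicates 1 and 2 were far above FC and replicate 3 nearest to it. Hspa1a and Hspa1b are near-identical, so that their probe sets cannot be taken as separate measurements, and the adjusted p of both exceeded 0.05 without BF replicate 1, without BF replicate 2 and without any 1 FC array, and that of Hspa1b also without any BG array, at up to 0.131 and 0.14. Hsp90aa1, the inducible HSP90, gave 11.75, 12.21 and 10.41 in BF, against 9.70, 9.52 and 9.84 in FC (1.77 ± 0.39, adjusted p = 0.00347), and Dnaja1, another HSP40, 11.31, 12.16 and 9.74 in BF, against 9.29, 9.28 and 9.47 in FC (1.72 ± 0.40, adjusted p = 0.00469). The small heat shock proteins of muscle were less variable, with Hspb8 at 13.13, 13.59 and 12.37 in BF, against 11.48, 11.31 and 11.57 in FC (1.58 ± 0.21, adjusted p = 9.04e-05), Hspb1 (HSP27) at 14.27, 14.53 and 13.81 in BF, against 13.07, 12.99 and 12.94 in FC (1.20 ± 0.21, adjusted p = 0.000637) and Hspb3 at 10.94, 11.64 and 10.08 in BF, against 9.39, 9.33 and 9.45 in FC (1.50 ± 0.26, adjusted p = 0.000594). Cryab, an abundant small heat shock protein of slow muscle, was at 0.05 (adjusted p = 0.91). Hspa8, the constitutive HSP70, rose by 0.56 (adjusted p = 0.0424) on its brightest probe set, a call lost without BF replicate 1 or 2 or any FC array or BG replicate 2 or 3, and by 2.06 on a dim one. Bag2, a co-chaperone that inhibits substrate ubiquitination, fell by 1.003 (adjusted p = 1.09e-05). Dnajb6 fell by 0.72 on its brightest probe set (adjusted p = 0.00567) while its other 3 probe sets rose by 0.36 to 1.04, so no direction is given for it.

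Heat shock factor binds inverted repeats of the bases GAA, and these were looked for in the promoters of the list from 250 bases before the start, in RefSeq sequence of build GRCm38.p6. The letters searched were GAANNTTC and TTCNNGAA, each of which reads the same on both strands. They occurred in 12.8% of all 32851 promoters and 14.5% of 27025 genes. Among 29 heat shock genes with a promoter there, 12 held a match, namely 7 of the 11 that rose, 1 of the 4 that fell on the brightest probe set and 4 of the 14 that did not pass. The 1 among the 4 was Dnajb6, whose probe sets disagree. The windows show the match in capitals for 5 of the genes that rose, 5′ to 3′ on the strand of the gene, and the windows of the 2 HSP70 genes have the same letters.
Hspa1a, chr17:34972242-34972271, minus strand: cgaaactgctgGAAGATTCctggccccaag
Hspa1b, chr17:34959324-34959353, minus strand: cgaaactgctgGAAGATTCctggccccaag
Dnaja1, chr4:40722333-40722362, plus strand: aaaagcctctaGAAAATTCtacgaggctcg
Hspb1, chr5:135887791-135887820, plus strand: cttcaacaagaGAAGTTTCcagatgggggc
Hspb1, chr5:135887811-135887840, plus strand: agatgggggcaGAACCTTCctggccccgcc
Hspb3, chr13:113663882-113663911, minus strand: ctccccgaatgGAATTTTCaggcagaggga
The signals of these genes are given above, from differences of 1.20 for Hspb1 to 2.38 for Hspa1a, and a match is a description of the letters alone.

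**Figure D4:**
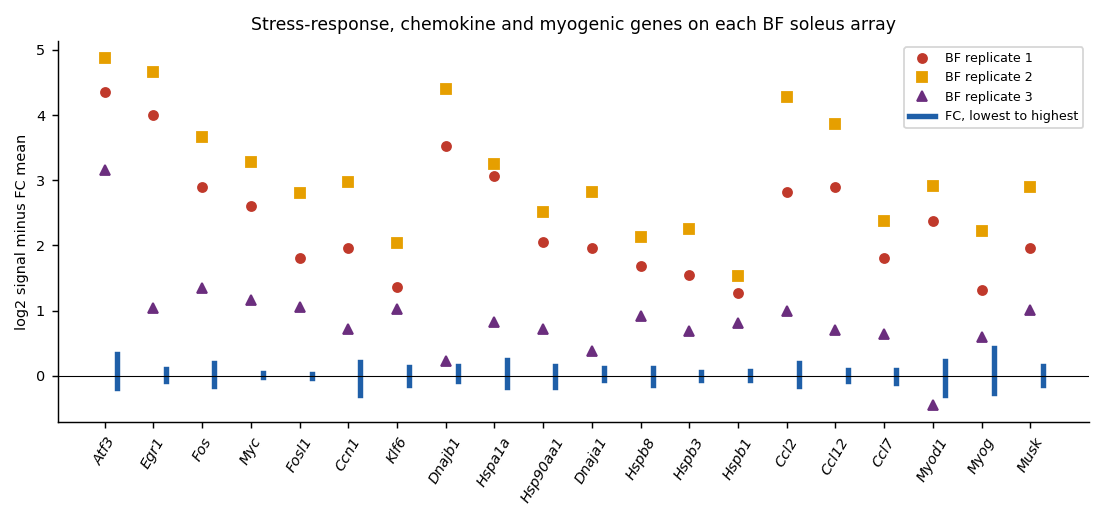
Log2 signal of each BF soleus array minus the FC mean (vertical axis) for immediate early, heat shock, chemokine and myogenic genes, with a bar for the range of the 3 FC arrays. BF replicate 2 stands highest and BF replicate 3 lowest for each of the 20 genes, and Myod1 on BF replicate 3 lies below the FC range.

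Secretory-pathway stress genes and Z-disc genes rose in part. Of 32 genes of endoplasmic reticulum folding and the unfolded protein response, 9 rose and 3 fell. Besides Atf3 these included Ppp1r15a, which restarts translation after stress (1.73 ± 0.31, adjusted p = 0.000749), the factor Atf4 (1.02 ± 0.13, adjusted p = 5.05e-05) and Xbp1, the factor spliced under reticulum stress (0.96 ± 0.21, adjusted p = 0.00292, with 0.63, -0.02 and 0.23 on probe sets that did not pass). Hspa5 (BiP), the main chaperone of the reticulum, was at 0.59 (adjusted p = 0.163) on its brightest probe set and at 0.90 on the other (adjusted p = 0.046), and Ddit3 (CHOP) at -0.01 (adjusted p = 0.986). In BG relative to FC, 11 of the 32 reticulum genes rose and 0 fell, beside 499 rises and 716 falls over all 12393 genes. In BF relative to BG, 5 of them rose and 7 fell, beside 1370 rises and 1523 falls over all genes. Above 2-fold, 4 of the 32 rose in BF over FC, 6 in BG over FC and 4 in BF over BG. These counts do not say which single genes separate flown mice from BG. Of 38 genes of the Z-disc, titin and costamere, 8 rose and 4 fell on the brightest probe set, the 4 including Tln1, whose probe sets disagree, and 1 fell without BF replicate 3, FC replicate 2 or FC replicate 3. Beside Ankrd1 and Myoz1, Xirp1, which marks sites of fibre remodelling, gave 12.99, 13.37 and 11.93 in BF, against 11.05, 10.60 and 10.60 in FC (2.01 ± 0.51, adjusted p = 0.00857). Pdlim3, the actinin-associated LIM protein, gave 12.26, 12.60 and 12.34 in BF, against 10.65, 10.77 and 10.96 in FC (1.60 ± 0.19, adjusted p = 3.61e-05). Neither gene overlapped between the groups. Vcl (vinculin) rose by 0.95 (adjusted p = 0.00034). Tln1 (talin) fell by 0.46 on its brighter probe set (adjusted p = 0.0247) and rose by 1.54 on the other, so no direction is given for it.

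Some chemokines rose, and their signals in FC were low. Of 32 chemokines and inflammatory cytokines 8 rose and 2 fell (median 0.322), and 6 to 10 rose without 1 array. With dim probe sets left out, at a mean log2 signal under 6, 7 of the 32 remained and 0 of them rose. Ccl2, which attracts monocytes, gave 7.83, 9.28 and 5.99 in BF, against 4.85, 5.19 and 4.96 in FC (2.70 ± 0.48, adjusted p = 0.000784). Ccl12 gave 6.89, 7.85 and 4.69 in BF, against 3.98, 4.07 and 3.92 in FC (2.49 ± 0.47, adjusted p = 0.00113), and Ccl7 6.20, 6.77 and 5.03 in BF, against 4.49, 4.28 and 4.42 in FC (1.60 ± 0.27, adjusted p = 0.000467). The groups did not overlap, and BF replicate 2 was again highest. Il6 rose by 0.94 (adjusted p = 0.00894) at a signal near the lower end of the array. Of 28 acute phase and IL-6 family genes 8 rose (5 without BF replicate 2 and 4 without FC replicate 3) and 1 fell, with Lcn2 (lipocalin 2) at 7.37, 6.33 and 7.62 in BF, against 4.46, 4.64 and 4.71 in FC (2.51 ± 0.46, adjusted p = 0.000857), Orm1 (orosomucoid) at 6.92, 7.34 and 7.46 in BF, against 4.67, 5.14 and 5.05 in FC (2.29 ± 0.36, adjusted p = 0.00032) and Serpina3n at 6.95, 7.55 and 6.48 in BF, against 5.75, 5.68 and 5.79 in FC (1.26 ± 0.22, adjusted p = 0.000724). Cish, a STAT target that curbs growth hormone signalling, fell by 1.57 (adjusted p = 0.0303), a call lost in 5 of the 6 fits without 1 array. With dim probe sets left out, 15 of the 28 acute phase and IL-6 family genes remained, of which 3 rose and 1 fell.

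Macrophage markers passed the test for 3 of 22 genes, of which 2 rose, a share near the 9.02% of all genes, and 1 fell. The rises numbered 4 without BF replicate 3 and 1 without BF replicate 2, FC replicate 1 or FC replicate 3. The summed linear signal of the 22 markers was 4238 to 7350 in BF and 3932 to 4709 in FC. Cd68, a lysosomal protein of macrophages, gave 9.80, 10.90 and 8.38 in BF, against 6.48, 6.33 and 5.95 in FC (3.44 ± 0.39, adjusted p = 2.54e-05), a 10.9-fold difference with no overlap. Csf1r, the receptor of macrophage colony-stimulating factor, was lower, at 8.42, 9.01 and 8.77 in BF, against 9.26, 9.63 and 9.73 in FC (-0.80 ± 0.22, adjusted p = 0.0121), though its adjusted p reached 0.0604 without 1 array. Further Csf1r probe sets lay at -0.90, which passed, and at 0.05, which did not. Adgre1 (F4/80) was at -0.08 (adjusted p = 0.782) and Cd163 at -0.41 (adjusted p = 0.424). In the RefSeq gene table a neighbour of Cd68 on chromosome 11 is Eif4a1, a translation initiation helicase, which rose by 0.69 (adjusted p = 0.00919) on its brightest probe set and by 1.10 and 1.85 on the others. A tie between the 2 signals was not tested. Neutrophil markers had 3 rises among 12, 1 without FC replicate 3, and their summed signal was 471 to 582 in BF and 323 to 359 in FC. Lcn2 and S100a8 (1.17 ± 0.33) were 2 of the 3, and the adjusted p of S100a8 reached 0.0734 without 1 array. With probe sets of a mean log2 signal under 6 left out, 0 of the 12 neutrophil markers remained, so all of these signals were dim. Interferon genes had 0 rises and 3 falls among 23, no more than the 9.02% and 16.0% of all genes.

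The myogenic regulators MRF4, myogenin and MyoD rose, and junction genes split. Of 20 myogenic and satellite cell genes 3 rose and 4 fell, or 2 without BF replicate 1 or FC replicate 3. Myf6 (MRF4), the main myogenic factor of adult fibres, gave 11.79, 12.22 and 11.71 in BF, against 10.24, 9.69 and 10.23 in FC (1.85 ± 0.20, adjusted p = 1.51e-05). Myog (myogenin) gave 7.54, 8.45 and 6.83 in BF, against 6.06, 5.96 and 6.66 in FC (1.38 ± 0.27, adjusted p = 0.00148). Myod1 gave 8.95, 9.49 and 6.13 in BF, against 6.64, 6.29 and 6.80 in FC (1.62 ± 0.54, adjusted p = 0.0383). Myf6 and Myog did not overlap between the groups, whereas Myod1 on BF replicate 3 lay below the FC arrays, and its call was lost without BF replicate 1, BF replicate 2 or any FC array. Pax7, the satellite cell factor, was at -0.18 (adjusted p = 0.455). Of 27 genes of the neuromuscular junction and the denervation response 5 rose and 8 fell. Musk, the kinase that organises the junction, gave 9.26, 10.19 and 8.31 in BF, against 7.28, 7.17 and 7.46 in FC (1.95 ± 0.40, adjusted p = 0.0021). Lrp4, its agrin-binding partner, gave 5.49, 5.59 and 5.36 in BF, against 6.85, 6.85 and 7.29 in FC (-1.52 ± 0.16, adjusted p = 1.51e-05). Chrna1, the alpha subunit of the acetylcholine receptor, gave 8.24, 8.21 and 8.10 in BF, against 9.15, 9.23 and 9.07 in FC (-0.96 ± 0.13, adjusted p = 0.000101). Musk was higher and the other two were lower on every BF array. Runx1, induced by denervation in mice, rose by 0.48 (adjusted p = 0.0168), a call lost without BF replicate 2, FC replicate 2 or FC replicate 3. Schwann cell markers had 2 rises among 10, or 0 without BF replicate 2 or FC replicate 3, with summed signals of 5652 to 9074 in BF and 3679 to 5225 in FC.

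Genes of protein breakdown passed the test in both directions. Of 29 genes for ubiquitin ligases, autophagy and atrophy 3 rose and 4 fell, with 1 to 7 falls when 1 array was left out, 1 of them without FC replicate 2 and 7 without BF replicate 3. The counts of 3 and 4 lie near the shares of all genes, 9.02% for rises and 16.0% for falls. Fbxo32 (atrogin-1), the ligase of wasting muscle, gave 11.38, 8.36 and 12.18 in BF, against 11.16, 10.95 and 10.94 in FC (-0.38 ± 0.59, adjusted p = 0.686). Its BF arrays lay on both sides of FC, and without BF replicate 2 the difference was 0.76. Of 40 proteasome subunits 9 rose and 1 fell, with Psmd8 of the regulatory particle at 11.96, 12.26 and 12.01 in BF, against 10.67, 10.27 and 10.67 in FC (1.54 ± 0.14, adjusted p = 5.84e-06). In BG relative to FC, 10 of the 40 subunits rose and 0 fell, beside 499 rises and 716 falls over all 12393 genes. In BF relative to BG 2 rose and 6 fell, beside 1370 rises and 1523 falls over all genes. Among 23 genes of p21 and p53 7 rose and 3 fell, or 1 without BF replicate 2 or FC replicate 3. Cdkn1a (p21), which halts the cell cycle, gave 10.75, 11.28 and 10.997 in BF, against 8.64, 8.77 and 9.06 in FC (2.18 ± 0.34, adjusted p = 0.000262), and 2.73 on a second probe set. Sesn1, a stress-induced inhibitor of mTOR signalling, gave 10.07, 10.09 and 9.93 in BF, against 8.72, 8.78 and 8.91 in FC (1.23 ± 0.14, adjusted p = 2.65e-05). Both genes were higher on every BF array. Cell cycle genes passed for 7 of 33, 2 up and 5 down (3 without FC replicate 2), among them Ung, a DNA repair glycosylase (-1.80 ± 0.20, adjusted p = 1.6e-05). The cell cycle counts did not exceed the shares of all genes. Among 26 genes of insulin, IGF and mTOR signalling 5 rose and 6 fell.

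The circadian clock genes shifted in both directions. Of 19 measured genes 5 rose (3 without FC replicate 1) and 7 fell. Arntl (BMAL1), the activator of the loop, gave 8.41, 8.87 and 8.20 in BF, against 6.18, 5.57 and 6.06 in FC (2.56 ± 0.33, adjusted p = 6.14e-05), and its partner Clock rose by 0.73 (adjusted p = 0.00252). Per2, a repressor of the loop, gave 6.46, 6.58 and 6.21 in BF, against 7.23, 7.57 and 7.65 in FC (-1.06 ± 0.23, adjusted p = 0.00329), and Per3 6.48, 6.02 and 5.96 in BF, against 7.43, 7.93 and 7.71 in FC (-1.54 ± 0.31, adjusted p = 0.00195). Hlf, a relative of Dbp, gave 6.63, 6.52 and 6.73 in BF, against 7.50, 8.13 and 7.85 in FC (-1.20 ± 0.19, adjusted p = 0.00034). The groups were apart for each of these. Nfil3, which competes with Dbp and Hlf for the same sites, rose by 1.47 (adjusted p = 0.013), and Nr1d1 (REV-ERB alpha) by 1.14 (adjusted p = 0.0404), and the adjusted p of both exceeded 0.05 in some fits without 1 array. Per1 was at -0.04 (adjusted p = 0.943). The time of day of dissection was not given in the sources used here. Dbp, Hlf and Nfil3 bind the D-box, and the letters TTATGTAA, searched on both strands, were in 0.819% of all promoters and 0.977% of genes. They were in 1 of the 16 clock genes with a promoter there. This was Per3, which holds them at 2 places, shown with the match in capitals. It was 1 of the 5 with a promoter that fell, beside 0 of the 5 that rose and 0 of the 6 that did not pass. A match is a description of the letters alone, and a tie to Dbp, Hlf or Nfil3 was not tested.
Per3, chr4:151044852-151044881, minus strand: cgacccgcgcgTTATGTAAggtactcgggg
Per3, chr4:151044805-151044834, minus strand: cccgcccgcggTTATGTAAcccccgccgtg
The E-box letters CACGTG, bound by Arntl and Clock, were in 6.02% of all promoters, 6.86% of genes and 4 of the 16. These were 1 of the 5 that rose, 1 of the 5 that fell and 2 of the 6 that did not pass.

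Glucocorticoid-responsive genes and metallothioneins rose in part, with 9 rises and 2 falls among 25 (median 0.301). The falls numbered 0 without BF replicate 2 or FC replicate 2, 1 without FC replicate 3 and 4 without BF replicate 3. Mt2 gave 11.62, 12.01 and 11.25 in BF, against 9.16, 9.69 and 9.78 in FC (2.08 ± 0.37, adjusted p = 0.000738) and Mt1 12.02, 12.56 and 11.85 in BF, against 10.21, 10.79 and 11.08 in FC (1.45 ± 0.37, adjusted p = 0.00832), both metal-binding metallothioneins. Cebpd, a C/EBP factor, gave 10.17, 10.21 and 10.47 in BF, against 8.40, 9.26 and 9.05 in FC (1.38 ± 0.27, adjusted p = 0.00173). Each BF array was above each FC array for the 3 genes on these probe sets. Further probe sets of Mt1 (0.65) and Cebpd (0.09) did not pass. Fkbp5, a co-chaperone of the glucocorticoid receptor, rose by 1.03 (adjusted p = 0.00952), and Zbtb16 fell by 0.68 (adjusted p = 0.0243, up to 0.117 without 1 array). Tsc22d3 (GILZ) was at 0.30 (adjusted p = 0.372) on its brightest probe set, at 1.29 on another that passed (adjusted p = 0.0014) and at 0.17 on the third, so the call depended on the probe set.

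Many matrix genes fell. Of 43 collagen and matrix genes 23 fell and 1 rose (median -0.719). In BG relative to FC 8 of the 43 fell and 1 rose (median -0.335, against -0.0545 over all genes). In BF relative to BG 13 fell and 1 rose (median -0.275, against 0.0345 over all genes). Over all 12393 genes, falls numbered 716 and 1523 in BG vs. FC and BF vs. BG, and rises 499 and 1370. Col1a1, of type I collagen, gave 6.71, 6.74 and 7.45 in BF, against 9.32, 10.17 and 9.47 in FC (-2.68 ± 0.50, adjusted p = 0.000968). Col3a1, of type III collagen, gave 9.98, 10.29 and 10.29 in BF, against 11.66, 11.66 and 12.06 in FC (-1.61 ± 0.36, adjusted p = 0.00384). Col6a1, of the type VI collagen around fibres, gave 8.30, 8.37 and 8.12 in BF, against 9.84, 10.11 and 10.11 in FC (-1.76 ± 0.26, adjusted p = 0.000183). No array of one group reached the other for these collagens. Fn1 (fibronectin) fell by 1.44 (adjusted p = 0.00032) and Eln (elastin) by 1.06 (adjusted p = 0.000357) on the brightest probe set. On further probe sets Fn1 lay at -0.34 and Eln at 0.16, and neither passed. The member that rose was Thbs1 (thrombospondin 1), an activator of TGF-beta, at 8.21, 9.18 and 7.90 in BF, against 6.24, 6.35 and 6.13 in FC (2.19 ± 0.37, adjusted p = 0.000498). Of 17 tendon and cartilage markers 5 fell and 1 rose, with 3 falls without BF replicate 1, BF replicate 2, FC replicate 2 or FC replicate 3. Fmod (fibromodulin), which binds collagen fibrils, gave 7.77, 8.74 and 10.12 in BF, against 11.14, 11.98 and 11.43 in FC (-2.64 ± 0.49, adjusted p = 0.00101), Chad (chondroadherin) 5.63, 5.53 and 6.89 in BF, against 8.22, 9.50 and 8.46 in FC (-2.71 ± 0.55, adjusted p = 0.00191) and Comp, the cartilage oligomeric matrix protein, 5.34, 5.70 and 6.28 in BF, against 7.61, 8.59 and 7.73 in FC (-2.20 ± 0.42, adjusted p = 0.00119). All 3 were highest in BF on replicate 3. The tendon-defining genes Tnmd (-1.44 ± 0.66) and Scx (0.54 ± 0.23) did not pass. The summed signal of the tendon list was 2386 to 5078 in BF and 5932 to 10539 in FC, and that of 11 fibroblast markers, of which 4 fell and 0 rose, 12110 to 17306 in BF and 16754 to 18095 in FC. Of the fibroblast markers 3 fell and 0 rose in BG relative to FC (median -0.658). In BF relative to BG 1 of them fell and 1 rose (median -0.18). The part of attached tendon or of fibroblast number in the collagen values was not tested.

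Several vessel genes fell. Of 22 endothelial markers 10 fell and 1 rose (median -0.396), and their summed signal was 3622 to 4565 in BF and 5561 to 6130 in FC. Vwf (von Willebrand factor) gave 6.06, 6.21 and 6.18 in BF, against 8.32, 7.73 and 7.93 in FC (-1.84 ± 0.22, adjusted p = 3.9e-05). Kdr, the VEGF receptor 2, gave 7.36, 7.52 and 6.97 in BF, against 8.59, 8.37 and 8.27 in FC (-1.13 ± 0.18, adjusted p = 0.000326). Tie1, an endothelial receptor kinase, gave 6.46, 6.02 and 5.79 in BF, against 7.25, 7.38 and 7.35 in FC (-1.23 ± 0.20, adjusted p = 0.00033). The groups did not overlap. Aplnr, the apelin receptor, fell by 1.77 (adjusted p = 0.00483) on its brighter probe set and was at -0.14 on the other (adjusted p = 0.637). Pecam1 was at 0.01 (adjusted p = 0.983) and the tight junction gene Cldn5 rose by 0.74 (adjusted p = 0.000771). Of 13 smooth muscle and pericyte markers 4 fell and 1 rose, with the receptor Notch3 at -1.05 ± 0.22 (adjusted p = 0.00253).

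Adipocyte hormones rose while lipid-storage genes were mixed. Of 22 adipocyte markers 7 rose (11 without BF replicate 3) and 2 fell, and the summed signal was 40877 to 53477 in BF and 42192 to 47097 in FC. Lep (leptin) gave 7.93, 8.78 and 7.53 in BF, against 5.10, 5.66 and 5.20 in FC (2.76 ± 0.41, adjusted p = 0.000181). Retn (resistin), an adipocyte hormone, gave 8.31, 9.34 and 7.81 in BF, against 7.33, 6.89 and 7.14 in FC (1.36 ± 0.31, adjusted p = 0.00451). Scd1, the stearoyl-CoA desaturase, gave 12.12, 13.01 and 12.04 in BF, against 10.39, 10.60 and 10.52 in FC (1.88 ± 0.47, adjusted p = 0.00824). Each lay higher on every BF array. Adipoq (adiponectin) rose by 1.27 (adjusted p = 0.037), a call lost without BF replicate 1, BF replicate 2 or any FC array, and Fabp4 was at 0.31 (adjusted p = 0.196). Dgat2, which makes triglyceride, fell by 1.14 (adjusted p = 0.00211).

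Several genes for amino acid use and ribosome production rose. Of 31 genes of amino acid transport and synthesis 11 rose and 4 fell (median 0.336), with 6 rises without FC replicate 2 and 7 without FC replicate 1 or 3. Gpt2, the mitochondrial alanine aminotransferase, gave 10.41, 9.18 and 10.48 in BF, against 7.35, 8.09 and 8.14 in FC (2.16 ± 0.32, adjusted p = 0.000163). Odc1, the first enzyme of polyamine synthesis, gave 10.90, 10.88 and 10.77 in BF, against 9.89, 9.62 and 9.85 in FC (1.07 ± 0.18, adjusted p = 0.000507), and Azin1, which frees it from its antizyme, 10.66, 11.62 and 9.96 in BF, against 8.91, 8.46 and 8.74 in FC (2.04 ± 0.29, adjusted p = 0.000133). The BF arrays of the 3 genes lay above the FC arrays. Of 6 snoRNA host genes, whose introns hold guide RNAs for ribosomal RNA, 5 rose and 0 fell (median 1.25). Snhg5 gave 8.72, 8.81 and 8.93 in BF, against 6.65, 6.86 and 7.003 in FC (1.98 ± 0.14, adjusted p = 3.04e-07). Snhg1 gave 8.92, 9.73 and 9.23 in BF, against 6.92, 7.61 and 7.62 in FC (1.92 ± 0.21, adjusted p = 1.6e-05), and Gas5 10.74, 10.80 and 11.24 in BF, against 9.95, 9.71 and 9.75 in FC (1.12 ± 0.13, adjusted p = 3.03e-05). BF and FC did not overlap. Of 34 cytosolic ribosomal proteins 11 rose and 0 fell (median 0.246), 4 without BF replicate 2 or FC replicate 2, with Rpl12 highest at 1.36 ± 0.19 (adjusted p = 0.000128).

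Habitat mice separate part of what lies between BF and FC, and the BF, BG and FC comparisons below share arrays. In BG relative to FC, 192 genes rose above 2-fold (1.55%) and 86 fell (0.694%) through any probe set, 3 of them both ways, and 36 rose and 41 fell on 1 probe set. The total of 275 was 178 without FC replicate 2. Of the genes called in BF vs. FC, Arntl had 8.81, 7.22 and 7.47 in BG, against 6.18, 5.57 and 6.06 in FC (1.90 ± 0.33, adjusted p = 0.00234), and its BF minus FC difference was 2.56. Tnfrsf12a differed by 1.51 (adjusted p = 0.0209) between BG and FC and by 2.82 between BF and FC. Thbs1 differed by 1.38 (adjusted p = 0.0248), and by 2.19 in BF. These were the largest rises of BG among genes called in BF. The largest falls were those of Lncpint, -2.59 in BG and -2.18 in BF, the transcript Gdap10, -2.34 and -1.74, and Dbp, -1.87 and -3.81. Hlf had 6.36, 6.45 and 6.79 in BG, against 7.50, 8.13 and 7.85 in FC, and the BG and BF arrays overlapped, with BF minus BG at 0.09 (adjusted p = 0.764), and Per2 gave -0.01 (adjusted p = 0.982) for the same difference.

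Fzd9, Casq2 and Cd68 did not pass the test between BG and FC. Fzd9 gave 9.73, 9.40 and 9.47 in BG, against 9.46, 9.67 and 9.51 in FC (-0.02, adjusted p = 0.962). Casq2 gave 10.99, 10.81 and 11.09 in BG, against 10.99, 10.79 and 11.05 in FC (0.02, adjusted p = 0.963). Cd68 gave 6.09, 6.17 and 6.62 in BG, against 6.48, 6.33 and 5.95 in FC (0.04, adjusted p = 0.962). For these genes BG and FC arrays overlapped and BF stood apart from both. Myh4 in BG was 7.68, 12.15 and 8.71, a spread that covers the FC range, and Actn3 was 8.07, 10.54 and 8.07. Dnajb1 in BG was 7.67, 7.44 and 7.75, Lep 4.99, 5.13 and 5.25 and Ppara 10.35, 8.96 and 10.01, against BF minus BG differences of 3.10, 2.96 and -2.06 (adjusted p = 0.00244, 0.000156 and 0.000112). Pln was higher in BG than in FC by 0.75 (adjusted p = 0.0146), opposite to its fall in BF.

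The BF minus FC change of soleus was also set against that of EDL, with the difference between muscles tested in the same model. At above 2-fold through any probe set, the soleus change was the more positive for 106 genes (0.855%) and the more negative for 97 (0.783%). This total of 203 was 405 without BF soleus replicate 3, 129 and 132 without FC soleus replicate 2 and 3, and 116 without BF EDL replicate 1. Of the 480 soleus calls on 1 probe set, 28 (5.83%) were among the 62 EDL calls (45.2% of those), 27 in the same direction, and 137 had a difference between muscles past the test at any fold, 56 the more positive and 81 the more negative in soleus. Over all genes the same rule gave 0.855% and 1.19%, which cannot be set against the 137, since the 480 were chosen on the soleus change that the difference contains. Of these 137, 110 had an EDL change within 0.5 of 0 and 5 had an EDL change past the test in the opposite direction. The 137 were chosen for a large soleus change that differed from that of EDL, which favours small or opposite EDL changes. These counts are therefore no separate result about EDL. EDL calls through any probe set were 66 up (0.533%) and 37 down (0.299%). Actn3 changed by 3.63 in soleus and -0.05 in EDL (difference 3.68 ± 0.71, adjusted p = 0.013), where its signal was 13.76, 13.92 and 13.68 in BF and 13.73, 13.78 and 13.99 in FC. EDL signals of both groups lay close to those of the highest BF solei. Hbegf differed by 3.58 ± 0.68 (adjusted p = 0.0124), Cd68 by 3.40 ± 0.56 (adjusted p = 0.00583) and Myc by 2.35 ± 0.49 (adjusted p = 0.0203), with EDL changes of 0.29, 0.04 and 0.01.

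Sln moved in opposite directions in the 2 muscles. In EDL it gave 8.51, 7.31 and 7.97 in BF, against 6.67, 6.14 and 6.20 in FC (1.59, adjusted p = 0.0399), so that the soleus minus EDL difference was -3.88 ± 0.58 (adjusted p = 0.00379). Myh3 changed by -2.004 in soleus and 0.99 in EDL, where it did not pass (adjusted p = 0.0993), with a difference of -2.998 ± 0.46 (adjusted p = 0.00379). Cyfip2 (difference -2.74 ± 0.23, adjusted p = 2.9e-05), Lgi1 (-2.32 ± 0.47, adjusted p = 0.0174) and Casq2 (-2.10 ± 0.25, adjusted p = 0.000468) fell in soleus and changed by -0.06, -0.53 and 0.06 in EDL. Fzd9 fell in both muscles, by 0.72 in EDL (adjusted p = 0.00993), and more in soleus (-2.05 ± 0.20, adjusted p = 8.33e-05). Cbr2, a carbonyl reductase, rose in soleus (1.49 ± 0.38, adjusted p = 0.00904) and was at -1.16 in EDL (adjusted p = 0.106). Rasd2, a small GTPase, was at 0.66 in soleus (adjusted p = 0.207) and fell in EDL (-1.73, adjusted p = 0.0145), with a difference of 2.39 (adjusted p = 0.0222). Fxyd6, a regulator of the sodium pump, fell by 1.35 in soleus (adjusted p = 0.000825) and was at 0.75 in EDL, and Tdrp rose by 1.55 in soleus (adjusted p = 5.17e-05) and fell by 0.74 in EDL (adjusted p = 0.0459). Among clock genes Dbp was at -3.81 in soleus and -2.73 in EDL (difference -1.08 ± 0.73, adjusted p = 0.524), and Cdkn1a rose by 2.18 in soleus and by 2.28 in EDL (adjusted p = 0.00181).

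**Figure D5:**
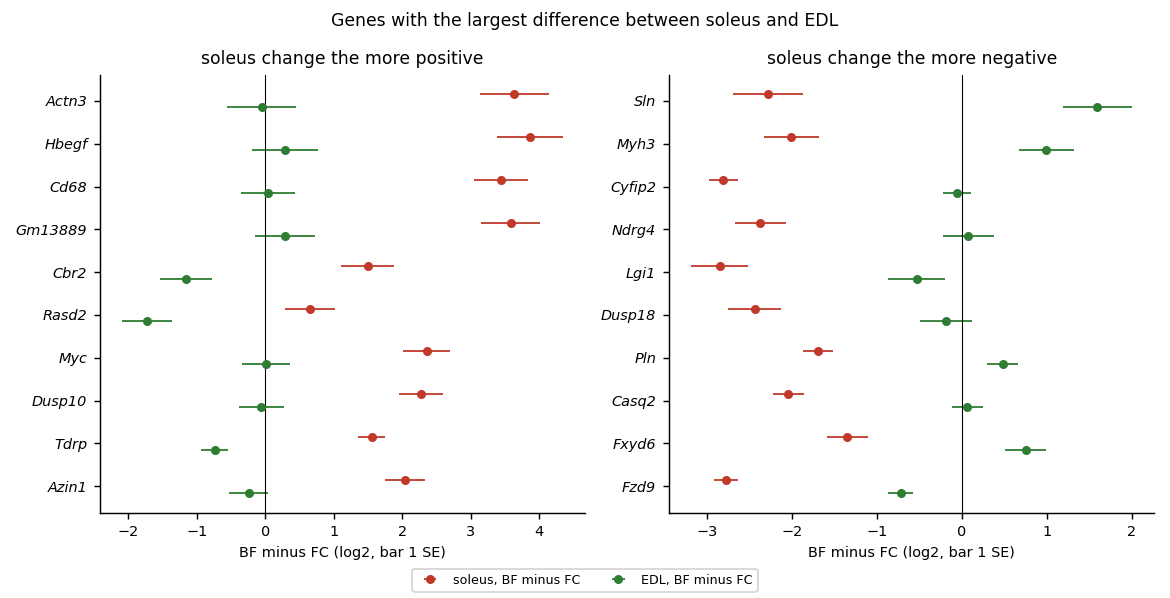
BF minus FC difference (log2, horizontal axis, bars 1 SE) in soleus and in EDL for the 10 genes with the most positive (left) and the 10 with the most negative (right) called difference between muscles. The genes were chosen on the difference between muscles, which favours EDL points near 0 or opposite to soleus. Most EDL points lie near 0, and Sln, Myh3, Rasd2, Cbr2, Tdrp and Fxyd6 lie on opposite sides by more than 0.5 in the 2 muscles.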

How the data were processed

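Total RNA of 9 solei and 9 EDL was hybridised to Affymetrix mouse 3′ expression arrays, 3 per group. The authors normalised the arrays by RMA in Partek Genomics Suite and deposited 1 table of log2 signals for 22690 probe sets and 18 arrays, with values of 2.11 to 14.53. RMA includes a quantile normalisation step, which assumes that most signals do not differ between arrays. Signals near either end of the range understate fold changes. Array scan dates and slides were not given in the sources used here, and the number of arrays limits the precision.

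The 22626 probe sets that are not controls were fitted with limma 3.58.1 in R 4.3.3, in a linear model of 6 groups (12 residual and 5.1 prior degrees of freedom), with Benjamini-Hochberg adjustment over all of them. A gene was called at a change above 2-fold and an adjusted p under 0.05. Probe sets were named through the platform annotation, updated by Entrez identifier for 20364 of them. Of all probe sets, 20393 name 1 gene, 691 name several and were not used for genes, and 1606 name none. Of a gene's probe sets the one with the highest mean signal gives its values. The fit was tested on simulated data. Promoters were searched in RefSeq sequence of GRCm38.p6. Tables and plots were made in Python 3.11.15 with pandas 2.3.3 and matplotlib 3.10.9.

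Named genes are the 15 largest rises and falls with groups that do not overlap, members of gene lists that passed the test or define their list, the largest differences between muscles or of BG, and genes whose probe sets disagree. The members and the gene lists were chosen with earlier results of these data known. Alternatives were other sets of arrays, the ordinary analysis of variance named in the methods, an intensity trend, array weights, the replicate number as a block, other normalisations, a filter on dim probe sets, 1 value per gene and each array left out.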

Additional observations from a re-analysis of the deposited data

Results flagged for a closer look

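The change between BF and FC differed between soleus and EDL, by a test of the difference itself, for 203 genes above 2-fold through any probe set. The values that follow are soleus minus EDL differences of the log2 change for genes named above, each with an adjusted p under 0.05 in limma. Each value contains the EDL change as well as the soleus change. Cd36 and Rasd2 did not pass the test in soleus itself on the probe set used.

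The soleus change was the more positive for fast fibre and sugar metabolism genes, with 3.68 for Actn3, 1.09 for Myoz1, 2.20 for Pvalb, 2.05 for Adpgk, 2.16 for Gpd1 and 1.62 for Phkg1. It was more positive for stress and growth genes, with 3.58 for Hbegf, 2.35 for Myc, 1.64 for Fosl1, 1.21 for Klf6, 1.99 for Nr4a1, 2.33 for Dusp10, 1.74 for Mustn1, 1.63 for Hspb8, 1.48 for Pdlim3 and 1.03 for Vcl. Further positive values were 3.40 for Cd68, 3.30 for Gm13889, 2.65 for Cbr2, 2.39 for Rasd2, 2.29 for Tdrp, 2.01 for Gpt2, 1.36 for Odc1, 2.29 for Azin1, 1.23 for Psmd8 and 0.82 for Snhg5.

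The soleus change was the more negative for calcium and membrane genes, with -3.88 for Sln, -2.17 for Pln, -2.10 for Casq2, -1.26 for Homer2, -1.28 for Rcan2, -1.13 for Kcnma1, -2.10 for Fxyd6, -2.05 for Fzd9 and -1.36 for Chrna1. Oxidative genes gave -1.27 for Acaa2, -1.26 for Cpt2, -1.12 for Cd36, -1.28 for Fabp3, -1.04 for Oxct1, -1.98 for Idh2, -0.91 for Mfn1 and -1.60 for Ppara. The remaining values were -3.00 for Myh3, -2.74 for Cyfip2, -2.45 for Ndrg4, -2.32 for Lgi1, -2.25 for Dusp18, -1.75 for Dgat2 and -1.09 for Eln. Groups of 3 arrays are too small for a test of single outlying arrays.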

How the results depend on the processing

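The 688 genes called in BF vs. FC soleus numbered 580 to 704 under alternatives that kept all arrays and single probe sets, 480 on 1 probe set per gene, and 404 (208 up, 196 down) on the mean of a gene's probe sets, which tests fewer rows. Leaving out 1 array gave 614 to 816. The 438 list members past the test numbered 321 to 533, and 325 to 445 without 1 array. The 203 differences between muscles numbered 77 with ordinary analysis of variance, 486 with array weights and 131 on the mean of probe sets, and 116 to 405 without 1 array. The 275 genes of BG vs. FC numbered 61 on the mean of probe sets, 77 on the brightest probe set, and 178 to 310 without 1 array. The cause was not tested. Dnajb6 and Tln1 reversed on the mean of their probe sets, to 0.33 and 0.54, and Fbxo32 reversed without BF replicate 2, to 0.76, with -1.14 the lowest value without 1 array (BF replicate 3).

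Replicate numbers were not taken to pair the arrays. Deviations from the group means of same-numbered BF and FC solei correlated at 0.015, -0.06 and 0.034, and those of same-numbered soleus and EDL arrays of a group at -0.049 to 0.373, over 0.1 in 6 of 9 pairs. The labels do not say whether the muscles of a number came from 1 mouse. A replicate block across the 2 muscles, chosen after seeing the data, gave 261 differences between muscles, with all 203 among them. The replicate block within each muscle gave 697 genes for BF vs. FC, 216 for the difference between muscles, 275 for BG vs. FC and 438 list members. The block took Hspa1a, Hspa1b and Hspa8 past an adjusted p of 0.05, to 0.06, 0.073 and 0.061, and brought Myh2 under it, to 0.023. Over 179 named genes the alternatives gave 3225 values on the same side of the threshold, 114 no longer past it (26 genes) and 47 newly past it (19 genes).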
